A study of Mus musculus with 17 samples.

Results

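Mouse CD4 T cells sorted as Foxp3+ were compared with CD4 T cells sorted as Foxp3- after culture with dendritic cells (DC) of the spleen, without added retinoic acid. The comparison rests on 4 of the 17 mouse expression arrays of the series, the 2 Foxp3+ and the 2 Foxp3- arrays of that culture, and arrays with the same number were treated as a pair. Both groups came from CD4+ Foxp3- T cells of the spleen of C57BL/6-Foxp3/GFP reporter mice, so the Foxp3+ cells were sorted from cultures that had been started with Foxp3- cells. The mice were male and 6 to 10 weeks old, and 3 of them were pooled for each array. For 5 days 10 T cells were kept with each spleen DC, in anti-CD3 at 1 ug/ml, TGF-beta at 0.6 ng/ml and added IL-2 at 5 ng/ml. The cells were then sorted on CD4 and on the presence (Foxp3+) or absence (Foxp3-) of GFP, the fluorescent protein of the reporter. The other co-cultures, used here to estimate the spread and for comparison, differed in the DC, which came from the lamina propria of the gut (LP DC), or in the addition of 100 nM retinoic acid (RA) to spleen DC. They hold 4 arrays with LP DC, and with RA 2 Foxp3+ arrays and 1 Foxp3- array, which gives 11 co-culture arrays in all.

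Foxp3 is the transcription factor that defines regulatory T cells, which restrain the responses of other T cells. Activation of Foxp3- CD4 T cells through the antigen receptor in the presence of TGF-beta and IL-2 turns Foxp3 on in a fraction of them, and these induced cells carry surface proteins such as CD25 (Il2ra), CTLA-4, GITR (Tnfrsf18) and OX40 (Tnfrsf4). Cells that stay Foxp3- under the same conditions have met the same antibody, cytokines and DC.

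Values are log2 of RMA intensity, a normalized probe brightness, and the median probe set lay between 5.90 and 5.94 on the 4 arrays. The Foxp3 probe set read 4.53 and 4.48 on Foxp3+ arrays 1 and 2 and 4.44 and 3.88 on Foxp3- arrays 1 and 2. All 4 values lay below the array median, so this probe set does not check the sort labels. It was above the median on 0 of the 11 co-culture arrays and was therefore not tested. All 12 measured T cell markers lay above the median on each of the 4 arrays, and their summed intensity was 23034 and 24060 in Foxp3+ and 23086 and 23928 in Foxp3- cells. Summed B cell markers (11 measured) read 2285.2 and 2037.9 in Foxp3+ against 2296.9 and 1839.2 in Foxp3- cells. Of these markers 7, Cd79a, Cd79b and Pax5 included, were below the median on all 4 arrays. Above the median were 3 on Foxp3- array 2 and 4 on each other array. Of 20 dendritic and myeloid markers, 10 were below the median on all 4 arrays, Itgax, Xcr1 and H2-Aa included. The other dendritic and myeloid markers were mostly above it, 10 on Foxp3- array 2 and 9 on each other array. Sums over all 20 were 2604.7 and 3296.5 in Foxp3+ against 2407.8 and 3137.3 in Foxp3- cells. Nothing in the labels says that the numbered arrays came from separate cultures, so p-values measure a spread between arrays that may be technical. In the main fit that spread was estimated from all 11 co-culture arrays, after the shift between array numbers was taken out.

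Foxp3+ cells had more Ecm1, Gpr83, Cd81, Enah and Izumo1r transcript, and less Tjp1, Lypd6b, St3gal6, Klrd1 and Fgl2, by 2.76-fold to 16.2-fold. Of 11846 genes tested with limma, 66 (0.557%) passed at an adjusted p under 0.05 in the fit that keeps the array number as a block, 32 of them (0.27%) higher and 34 (0.287%) lower in Foxp3+ cells. At least 2-fold changes made up 22 of the rises and 18 of the falls. Foxp3+ and Foxp3- arrays did not overlap for all 32 rises and 33 of the 34 falls, where 12.5% and 15.1% of all genes tested were non-overlapping in those directions. With no block 0 genes passed in limma, the lowest adjusted p being 0.146, and 419 genes (3.54%) had an unadjusted p under 0.05, against 1132 (9.56%) with the block. The count also changed when single arrays were left out, which leaves at most 1 array in a group. It fell to a few genes without Foxp3- array 1 or 2 or without Foxp3+ array 1. The same held without Foxp3+ array 1 or 2 of the culture with RA, while the count rose without either Foxp3- array with LP DC. Without Foxp3+ array 2 it stayed near that of the main fit, but many of the genes that passed were other ones. The count was 585 when only the 4 arrays were fitted, 108 after quantile normalization and 10 with the mean of all probe sets of a gene. These held 66, 64 and 8 of the 66 genes.

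The median difference of all genes was -0.03 in pair 1 and -0.0023 in pair 2, and across all genes the differences of the pairs had a Pearson correlation of 0.52, as a description over genes that share their arrays. In both pairs 26.6% of all genes were higher and 34.6% lower in Foxp3+ cells. At least 2-fold higher in both pairs were 31 genes (0.262%), of which 14 passed, and at least 2-fold lower in both were 24 (0.203%), of which 14 passed.

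**Figure D1:**
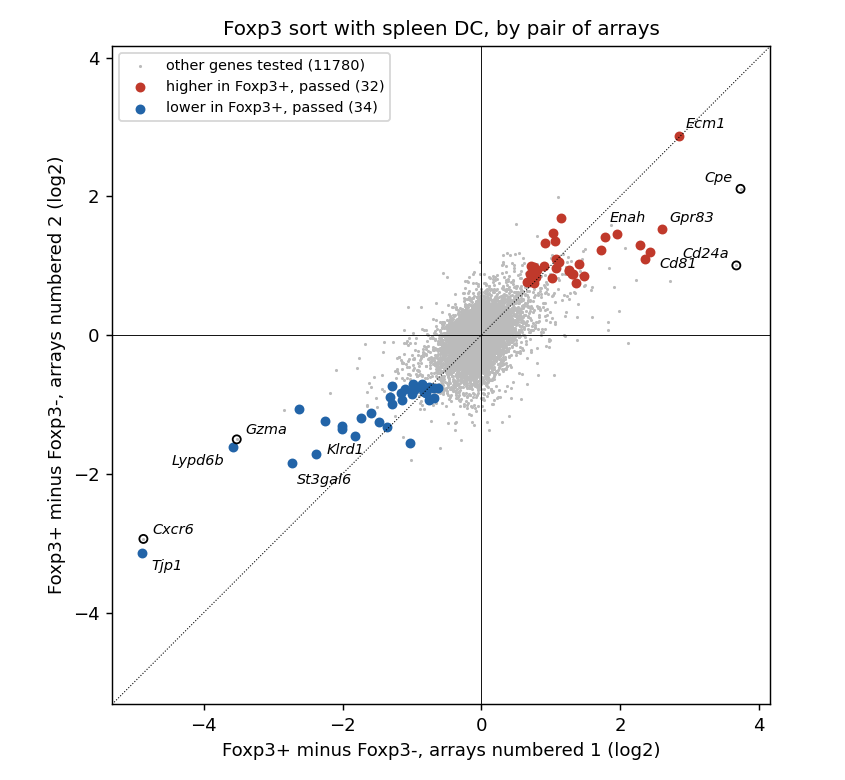
Each point is a gene, with the log2 difference Foxp3+ minus Foxp3- in the arrays numbered 1 on the horizontal axis and in those numbered 2 on the vertical axis. The 32 rises (red) and 34 falls (blue) that passed lie in the corners where both pairs go the same way, Ecm1 sits on the dotted line of equal change, and open circles mark 4 genes with large differences that did not pass.

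Among the rises that passed, the largest belonged to Ecm1, a secreted extracellular matrix protein. It read 9.08 and 10.38 on Foxp3+ arrays 1 and 2 and 6.24 and 7.51 on Foxp3- arrays 1 and 2, a difference of 2.86 ± 0.14 (SE of the fit, 2 arrays a group), or 7.26-fold, with an adjusted p of 2.88e-05. Here and below the SE comes from the fit to all 11 co-culture arrays with the block. It is not the spread of the 2 spleen DC pairs alone, which for Ecm1 gave 2.85 and 2.88. Array 2 was higher than array 1 in both populations by a like amount, and the groups did not overlap. Over the main fit and the alternative runs, those with arrays left out among them, the Ecm1 difference lay between 2.55 and 2.96. With no block its adjusted p in limma was 0.681. Gpr83, a G protein-coupled receptor abundant in regulatory T cells, read 9.19 and 7.87 in Foxp3+ and 6.58 and 6.34 in Foxp3- cells, a rise of 2.07 ± 0.37 (adjusted p = 0.049). Foxp3+ array 1 was well above Foxp3+ array 2, and both exceeded the Foxp3- arrays. Over the same runs the Gpr83 difference varied more than that of Ecm1, from 1.43 to 2.71.

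Cd81, a membrane-organizing tetraspanin, read 10.49 and 10.48 in Foxp3+ and 8.06 and 9.27 in Foxp3- cells, a rise of 1.82 ± 0.30 (adjusted p = 0.0361). The Foxp3+ arrays matched closely, and the gap between pairs came from the Foxp3- arrays. Enah, an actin regulator of the Ena/VASP family, read 11.83 and 11.49 against 9.88 and 10.04, a rise of 1.70 ± 0.20 (adjusted p = 0.0192). Its 5 other probe sets were also higher in Foxp3+ cells in both pairs. Izumo1r, known as folate receptor 4 on regulatory T cells, read 8.79 and 8.64 against 7.01 and 7.22, a rise of 1.60 ± 0.14 (adjusted p = 0.00479). Replicates lay within a narrow band on either side of a wide gap, and Izumo1r had the lowest adjusted p without the block, 0.146.

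The other large rises covered several functions. Ppm1l, a protein phosphatase, read 9.47 and 8.34 in Foxp3+ and 7.18 and 7.04 in Foxp3- cells (difference 1.79 ± 0.24). Procr, the receptor of activated protein C, read 8.34 and 7.31 against 5.98 and 6.20 (1.73 ± 0.29). Both were higher on Foxp3+ array 1 than on array 2, with no overlap. Ahcyl2 (1.47), the peptidoglycan-binding protein Pglyrp1 (1.42), Rassf4 (1.26), Tent5a (1.22), the lysosomal protease Ctsl (1.21), the urea transporter Slc14a1 (1.16), the arginine sensor Castor1 (1.13) and the fatty acid elongase Elovl6 (1.10) completed the 15 largest. Elovl6 read 11.10 and 10.63 in Foxp3+ and 9.77 and 9.75 in Foxp3- cells, so its Foxp3- arrays were nearly equal. All 15 had adjusted p-values of 0.049 or lower and groups that did not overlap.

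The promoter windows of the genes that passed were read from RefSeq (GRCm38.p6) to show the sequences next to the genes; 28 of the 32 rises and 24 of the 34 falls had at least 1 window, 33 and 30 windows in all. Short motifs were searched on both strands: the forkhead core TGTTTAC (its other strand GTAAACA), which Foxp3 and its relatives recognize, the E-box CACGTG, and the AP-1 site TGANTCA, the sequence bound by Fos and Jun. The forkhead core was in 2 windows of rises (6.06%) and 1 of falls (3.33%), against 3.65% of 32851 windows of all genes. The E-box was in 12.1% and 13.3% against 7.15%, and the AP-1 site in 9.09% and 16.7% against 7.81%. A match is a description of letters, not a site in use. The windows of Ecm1, the largest rise (chr3:95739520-95739819, minus strand, AP-1 motif in capitals, starting at -64 from the start site), and of Elovl6, one of the rises with a forkhead core (chr3:129532136-129532435, plus strand, forkhead core in capitals as GTAAACA, starting at -123), read 5′ to 3′:
Ecm1: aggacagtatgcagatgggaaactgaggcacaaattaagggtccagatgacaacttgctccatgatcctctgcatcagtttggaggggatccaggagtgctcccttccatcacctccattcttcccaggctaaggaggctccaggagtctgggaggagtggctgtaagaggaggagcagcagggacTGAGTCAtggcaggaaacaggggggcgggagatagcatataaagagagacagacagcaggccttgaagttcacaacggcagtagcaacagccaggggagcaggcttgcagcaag
Elovl6: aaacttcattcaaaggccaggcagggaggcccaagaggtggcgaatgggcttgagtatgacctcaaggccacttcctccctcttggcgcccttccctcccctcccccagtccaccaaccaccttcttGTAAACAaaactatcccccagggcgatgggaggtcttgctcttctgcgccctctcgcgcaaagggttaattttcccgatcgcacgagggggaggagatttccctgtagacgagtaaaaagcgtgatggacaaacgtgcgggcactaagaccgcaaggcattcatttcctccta

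**Figure D2:**
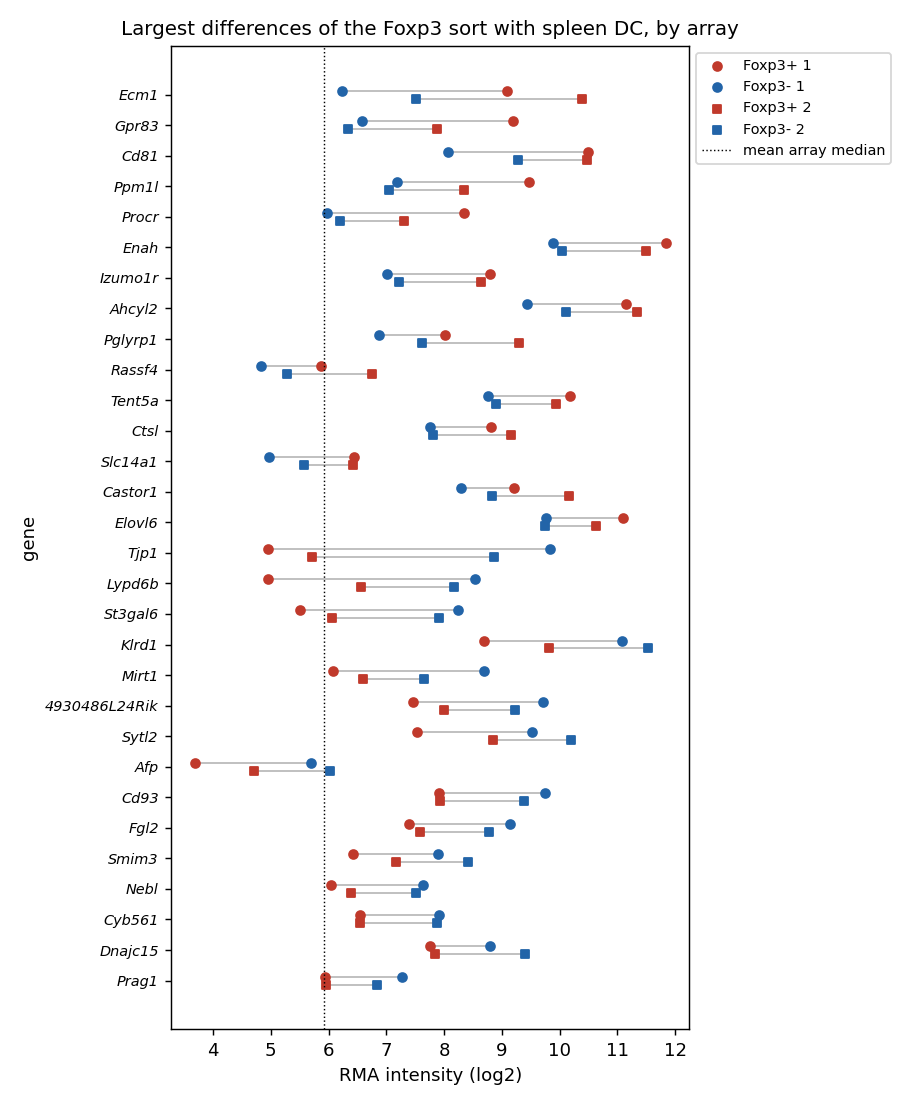
Log2 RMA intensity of the 15 largest rises (top) and 15 largest falls (bottom) on each of the 4 arrays, Foxp3+ in red and Foxp3- in blue, circles for arrays numbered 1 and squares for arrays numbered 2, grey lines joining each pair. Within each gene the red and blue symbols do not overlap, and the dotted line marks the mean of the 4 array medians.

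Among the falls, the largest was that of Tjp1, the tight junction scaffold ZO-1. It read 4.95 and 5.72 on Foxp3+ arrays 1 and 2 and 9.84 and 8.87 on Foxp3- arrays 1 and 2, so it fell by 4.02 ± 0.57 on the log2 scale, or 16.2-fold, with an adjusted p of 0.0312. The Foxp3+ values lay below the array median, where intensity tracks level poorly, and the Foxp3- values far above it. Lypd6b, a member of the Ly6 family, read 4.95 and 6.55 against 8.53 and 8.17 (difference -2.60 ± 0.45, adjusted p = 0.0429). St3gal6, a sialyltransferase, read 5.51 and 6.07 against 8.24 and 7.91 (difference -2.29 ± 0.37, adjusted p = 0.0353). In all 3 genes the Foxp3+ array numbered 1 was the lowest of the 4 and the Foxp3- array numbered 1 the highest.

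Klrd1, the CD94 chain of NK cell receptors, read 8.69 and 9.82 in Foxp3+ and 11.07 and 11.53 in Foxp3- cells (difference -2.04 ± 0.24, adjusted p = 0.0192). Sytl2, which tethers secretory vesicles through Rab27, read 7.53 and 8.84 against 9.53 and 10.20 (difference -1.68 ± 0.18, adjusted p = 0.0174). Both genes were higher on array 2 than on array 1 in each population. Fgl2, a fibrinogen-like protein that T cells can secrete, read 7.40 and 7.58 against 9.14 and 8.78 (difference -1.47 ± 0.22, adjusted p = 0.0351). Cd93, a lectin-like surface receptor, read 7.91 and 7.93 against 9.74 and 9.39 (difference -1.64 ± 0.25, adjusted p = 0.0353). For Fgl2 and Cd93 the Foxp3+ replicates were close together and every Foxp3- value stood above them.

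Of the remaining falls among the 15 largest, Mirt1 (-1.85) and 4930486L24Rik (-1.75) were followed by Afp (-1.66), Smim3 (-1.36), the actin-binding protein Nebl (-1.36), the electron carrier Cyb561 (-1.34), the mitochondrial co-chaperone Dnajc15 (-1.29) and Prag1 (-1.10). Afp read 3.69 and 4.70 in Foxp3+ cells, over 1 log2 unit under the array median, so the size of its fall is not resolved. Cyb561 gave 6.55 on both Foxp3+ arrays against 7.91 and 7.87, the closest agreement of replicates in this group. Atp8b4, a lipid flippase, was the 1 fall with overlapping groups, at 7.44 and 8.73 against 8.72 and 9.72.

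The promoter window of Fgl2, printed as 1 of the 5 windows of falls with the AP-1 site (chr5:21372423-21372722, plus strand, motif in capitals, starting at -16 from the start site), reads 5′ to 3′ in RefSeq GRCm38.p6:
Fgl2: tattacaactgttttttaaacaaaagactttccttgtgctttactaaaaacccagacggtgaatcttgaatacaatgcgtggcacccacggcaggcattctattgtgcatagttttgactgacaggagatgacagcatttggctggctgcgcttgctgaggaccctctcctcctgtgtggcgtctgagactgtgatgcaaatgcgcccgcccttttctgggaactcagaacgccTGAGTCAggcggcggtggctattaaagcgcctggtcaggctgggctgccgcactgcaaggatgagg

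Markers of other lymphocytes were summed on each array. Intensity over 11 CD8 T and NK cell markers was 5011 and 6104.2 on the Foxp3+ arrays and 8483.2 and 8665.5 on the Foxp3- arrays, but the sum holds Klrd1, itself a fall, and Gzma. Without these 2, left out after the values were seen, the other 9 summed to 4525.7 and 4698.3 against 5507.1 and 4282.5, so the groups overlapped and pair 2 went the other way. Cd8b1, Ncr1, Prf1 and Klre1 lay below the array median on all 4. The 5 measured gamma delta T cell markers summed to 675.48 and 488.53 against 2525.1 and 707.97, and without the gamma chain segments Trgv1 and Trgv4, also left out after the values were seen, to 242.06 and 246.65 against 236.56 and 221.3. Of these 5, Trgv1 and Trgv4 were lower in Foxp3+ cells in both pairs, Blk and Zbtb16 higher in both, and the median difference was 0.00. Trgv1 read 7.93 and 7.06 against 10.77 and 8.14 (difference -1.96 ± 0.36, adjusted p = 0.0536), highest on Foxp3- array 1. In bulk samples such as these, fewer cells of a type and less RNA per cell cannot be told apart. The part of other lymphocytes in the falls of Klrd1 and Fgl2 was not tested.

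Genes of the regulatory T cell signature were mostly higher in Foxp3+ cells, although few passed. Of 28 tested members 5 rose, Ecm1, Gpr83, Cd81, Izumo1r and Tnfrsf4, and 0 fell, where 0.27% and 0.287% of all genes did. In both pairs 23 were higher and 1 was lower, against 26.6% and 34.6% of all genes. The median difference was 0.55, against -0.02 for all genes. This list, like the others, was written with earlier results of these data known. It did not hold Fgl2, which fell and was placed among the cytotoxic and NK cell genes. Tnfrsf4, the co-stimulatory receptor OX40, read 11.31 and 11.93 against 9.95 and 11.19 (difference 1.05 ± 0.19, adjusted p = 0.0478), and Foxp3- array 2 came close to Foxp3+ array 1. With arrays centred on their medians 3 of the 5 passed.

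The best known regulatory T cell genes are given whatever their result. Il2ra, the high-affinity chain of the IL-2 receptor, read 11.52 and 10.68 in Foxp3+ and 9.60 and 9.99 in Foxp3- cells (difference 1.30 ± 0.41, adjusted p = 0.27). Tnfrsf18, the co-stimulatory receptor GITR, read 12.07 and 12.37 against 11.41 and 11.79 (0.62 ± 0.14, adjusted p = 0.102). Ctla4, the inhibitory receptor for CD80 and CD86, read 12.55 and 12.32 against 11.82 and 11.94 (0.56 ± 0.21, adjusted p = 0.378). For each of these genes the Foxp3+ arrays were the higher ones without overlap. Ikzf2, the factor Helios, read 11.94 and 11.15 against 11.70 and 11.18 (0.11 ± 0.18, adjusted p = 0.921), and its groups overlapped. Itgae, the CD103 integrin chain, read 10.46 and 7.37 against 10.12 and 6.72 (0.50 ± 0.58, adjusted p = 0.881), so the array number moved it far more than the sort. Further members, chosen after their values were seen, were Tnfrsf9 at 1.12 (adjusted p = 0.103), Socs2 at 1.02 (0.127), the Eos factor Ikzf4 at 0.83 (0.0738) and Icos at 0.62 (0.0664).

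Among 13 tested genes known to be lower in cells with Foxp3, 0 passed in either direction in limma. An unadjusted p under 0.05 was found for 6, 5 of them lower, against 9.56% of all genes. In both pairs 7 were lower and 5 higher (median -0.16). The lowest, chosen after its values were seen, was the phosphodiesterase Pde3b, at 11.68 and 12.48 in Foxp3+ and 13.11 and 13.25 in Foxp3- cells (-1.10 ± 0.21, adjusted p = 0.0536). In the TNF family and its receptors 1 of 23 rose (Tnfrsf4), where 0.27% of all genes did. In both pairs 12 were higher and 4 lower, against 26.6% and 34.6% of all genes, and the median was 0.16. In the immunoglobulin family of co-stimulatory and inhibitory receptors 1 of 19 fell, where 0.287% of all genes did, and 0 rose in limma. An unadjusted p under 0.05 was found for 10, 8 of them higher, against 9.56% of all genes. In both pairs 13 were higher and 4 lower, and the median was 0.38. The 1 that fell was Cd96, a receptor of nectin-like ligands, at 9.59 and 9.15 against 10.47 and 9.90 (-0.82 ± 0.14, adjusted p = 0.0413). Both of its Foxp3+ values lay under both Foxp3- values.

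The list of cytotoxic and NK cell genes gave 2 falls, Klrd1 and Fgl2, among 14 tested, where 0.287% of all genes fell. Fgl2 counts here only because it was placed in this list. In both pairs 7 were lower and 1 was higher, where 34.6% and 26.6% of all genes were, and the median was -0.22. Gzma, which encodes granzyme A, read 6.17 and 8.97 in Foxp3+ and 9.69 and 10.47 in Foxp3- cells (-2.51 ± 0.74, adjusted p = 0.213). Its groups did not overlap, but the Foxp3+ arrays lay far apart. The receptor gene Klrk1, chosen after its values were seen, had a difference of -1.11 (adjusted p = 0.134), and Gzmb one of 0.31 (0.715).

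Of the 27 chemokine receptor, integrin and homing genes 0 passed in limma, and their median difference was -0.00. An unadjusted p under 0.05 was found for 6 (4 of them lower), against 9.56% of all genes. The member with the widest gap, chosen after its values were seen, was Cxcr6, the receptor of CXCL16, at 4.63 and 6.63 in Foxp3+ and 9.50 and 9.57 in Foxp3- cells (-3.90 ± 0.75, adjusted p = 0.0577). Both Foxp3- arrays were nearly equal, and both Foxp3+ arrays lay far below them. The gut-homing genes had small differences without RA: Ccr9 read 4.16 and 3.91 against 4.31 and 4.03, below the array median, with a difference of -0.13 (adjusted p = 0.964). The integrin chains Itga4 and Itgb7 had differences of 0.21 (adjusted p = 0.892) and 0.12 (0.91).

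Among cytokines and the genes of helper T cell lineages 0 passed in limma in each of 4 lists. The medians were 0.08 for 18 cytokines and chemokines, -0.12 for 14 Th1 genes, 0.01 for 12 Th2 genes and 0.13 for 11 Th17 genes. Of these, 5, 3, 2 and 4 had an unadjusted p under 0.05, where 9.56% of all genes did. Tbx21, the Th1 factor T-bet, read 5.91 and 7.03 in Foxp3+ and 7.46 and 7.64 in Foxp3- cells (-1.08 ± 0.31, adjusted p = 0.205). Ifng, the Th1 cytokine, read 6.14 and 7.60 against 5.66 and 7.24 (0.42 ± 0.39, adjusted p = 0.837). The groups did not overlap for Tbx21, while Ifng differed more between numbers than between sorted populations. Il4, the Th2 cytokine, read 5.90 and 5.55 against 7.03 and 5.95 (-0.76 ± 0.18, adjusted p = 0.126), without overlap but near the array median. Gata3, the Th2 factor, had a difference of 0.32 (adjusted p = 0.688) and Il17a, the Th17 cytokine, one of -0.06 (0.96).

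Signalling pathways of the added cytokines showed 0 genes that passed in limma. The shares to read these lists against are 26.6% of all genes higher and 34.6% lower in both pairs, and 9.56% at an unadjusted p under 0.05. Of 24 TGF-beta pathway genes 10 were higher and 7 lower in both pairs (median 0.06), and 4 had an unadjusted p under 0.05. The receptor chains Tgfbr1 and Tgfbr2 had differences of 0.14 (adjusted p = 0.902) and -0.53 (0.415), and the signal transducer Smad3 one of 0.24 (0.597). Of 28 genes of the IL-2, STAT and SOCS pathway 16 were higher and 5 lower in both pairs (median 0.14), and 11 had an unadjusted p under 0.05, 10 of them higher. Chosen after their values were seen, the STAT5 target genes Cish and Pim1 had differences of 0.75 (0.0577) and 0.76 (0.0572) and Pim2 one of -1.13 (0.147). Of 13 retinoid genes 5 were higher and 5 lower in both pairs (median -0.03), and 4 had an unadjusted p under 0.05. Dhrs3, a retinaldehyde reductase, read 6.96 and 6.49 against 5.82 and 5.42 (1.10 ± 0.21, adjusted p = 0.0577), and was also chosen after its values were seen.

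The remaining lists are read against the same shares, 26.6% of all genes higher and 34.6% lower in both pairs and 9.56% at an unadjusted p under 0.05. Among 42 antigen receptor induced factors 0 passed in limma (11 at an unadjusted p under 0.05), with 23 higher and 5 lower in both pairs (median 0.14). Among 42 T cell state transcription factors 0 passed (9 at an unadjusted p under 0.05), with 20 higher and 13 lower in both pairs (median 0.12). Of 25 sterol and fatty acid synthesis genes 1 rose, Elovl6, and 0 fell in limma, where 0.27% and 0.287% of all genes did. An unadjusted p under 0.05 was found for 2, 1 in each direction. In both pairs 18 were lower and 3 higher (median -0.16), and the desaturase genes Fads2 and Scd1, chosen after their values were seen, had differences of -0.57 (adjusted p = 0.508) and -0.46 (0.565). Of 43 cell cycle and replication genes 0 passed (7 at an unadjusted p under 0.05), and 20 were lower and 8 higher in both pairs, with a median of -0.24 in pair 1 and 0.0008 in pair 2, so the median lay clearly below 0 in pair 1 alone. Glycolysis genes had 16 of 26 higher and 1 lower in both pairs (median 0.09), and oxidative phosphorylation genes 14 of 26 lower and 3 higher (median -0.06). In limma 0 of either list passed, and 2 and 0 had an unadjusted p under 0.05. Amino acid response genes (20, median -0.12) and interferon response genes (31, median 0.01) also had 0 passes, with 4 and 3 at an unadjusted p under 0.05.

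In the actin and junction list 1 of 28 rose (Enah) and 2 fell (Tjp1 and Nebl), where 0.27% and 0.287% of all genes did, with a median of 0.00. Among 20 S100, annexin and galectin genes S100a6, a calcium-binding protein, rose, from 12.08 and 11.31 in Foxp3- to 12.87 and 12.15 in Foxp3+ cells (0.81 ± 0.14, adjusted p = 0.0428). Its 2 pairs rose by nearly the same amount although the array numbers differed. Of 10 housekeeping genes 0 passed in limma, 1 had an unadjusted p under 0.05, against 9.56% of all genes, and the median was 0.02. A list of 34 genes named earlier for the Foxp3 sort on these same arrays held 8 rises and 7 falls, and since it was chosen on these arrays it is not independent evidence.

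**Figure D3:**
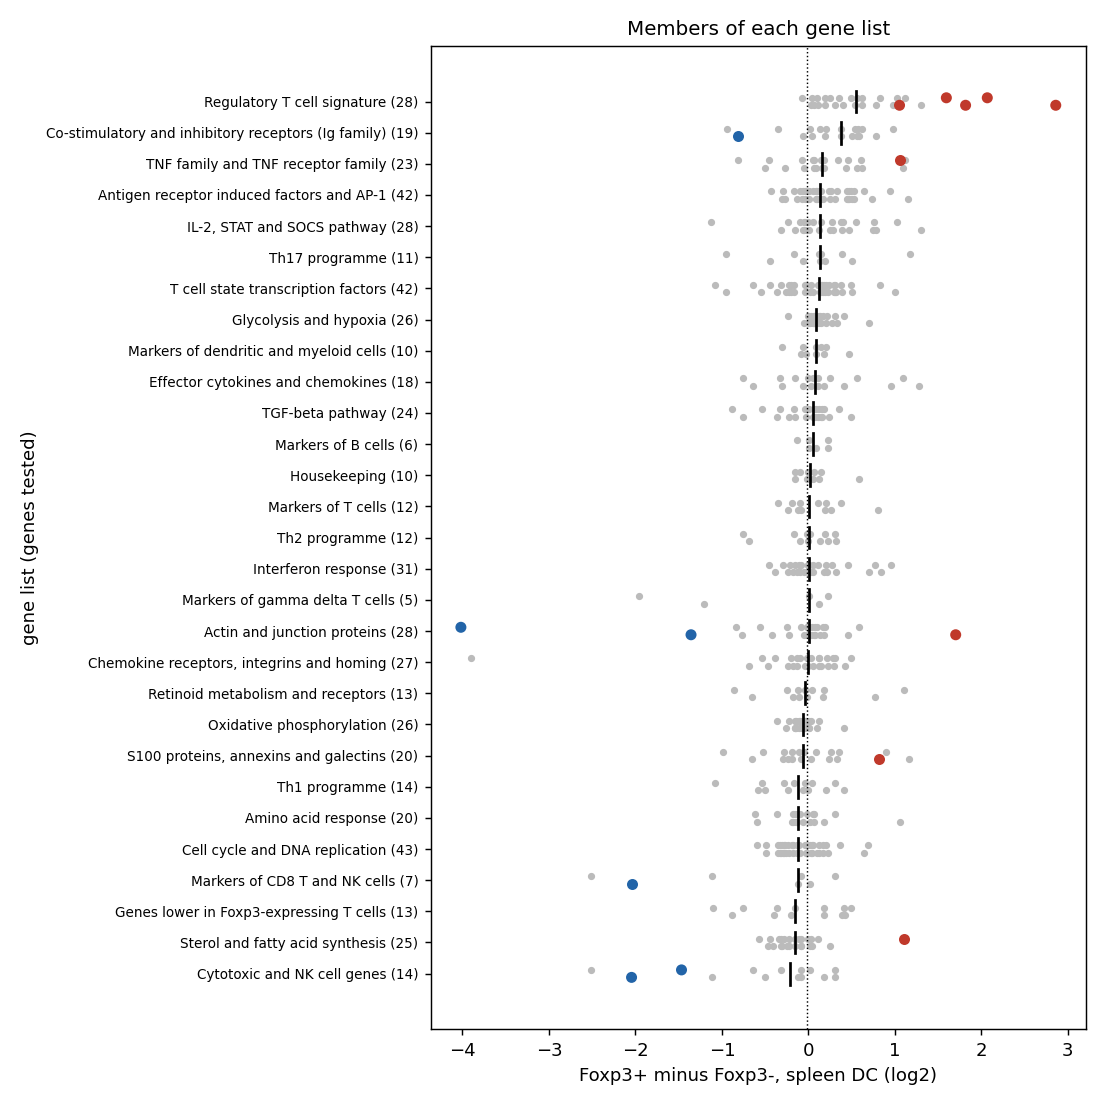
Log2 difference Foxp3+ minus Foxp3- for every tested member of 29 gene lists, with genes that passed in red (higher) or blue (lower), the others in grey and a black bar at the median of the list. The regulatory T cell signature has the highest median, 0.55, and most medians lie close to the dotted line, the median of all genes at -0.02.

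Several genes had large gaps in both pairs without passing and were chosen for naming after their values were seen. Cpe, a carboxypeptidase that trims peptide hormones, read 9.89 and 7.41 in Foxp3+ and 6.15 and 5.30 in Foxp3- cells (2.92 ± 0.65, adjusted p = 0.0989). Cd24a, a surface sialoglycoprotein, read 12.08 and 10.40 against 8.40 and 9.40 (2.34 ± 0.57, adjusted p = 0.127). In both genes Foxp3+ array 1 was far above Foxp3+ array 2. The cytokine gene Lif had a difference of 1.28 (adjusted p = 0.161) and the receptor gene Il6ra one of 1.17 (0.0841). For Il6ra the pairs gave 1.18 and 1.16. Its other probe set, with a mean of 6.72 on the 4 arrays against 7.17, gave -0.08 and -0.12.

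The same sort was available in the culture with LP DC, on other arrays, where 424 genes (3.58%) passed. All 32 rises were higher in Foxp3+ cells in both LP DC pairs, where 31.6% of all genes were, and 30 of them passed there, against 2.4% of all genes. All 34 falls were lower in both LP DC pairs, where 28.3% of all genes were, and 30 passed, against 1.18% of all genes. The comparisons share no arrays but 1 estimate of each gene's spread, so a gene with little spread passes more easily in both. The median rise was 1.10 with spleen DC and 1.55 with LP DC, and the median fall -1.02 and -1.05. The 6 genes that did not pass with LP DC were the rises Castor1 (0.50 there) and Gm15708 (0.20) and the falls Itsn1 (-0.20), Xrcc4 (-0.32), Cracdl (-0.45) and Med12l (-0.47), named after their values were seen. Across all genes the differences of the 2 cultures had a Pearson correlation of 0.67, as a description over genes.

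**Figure D4:**
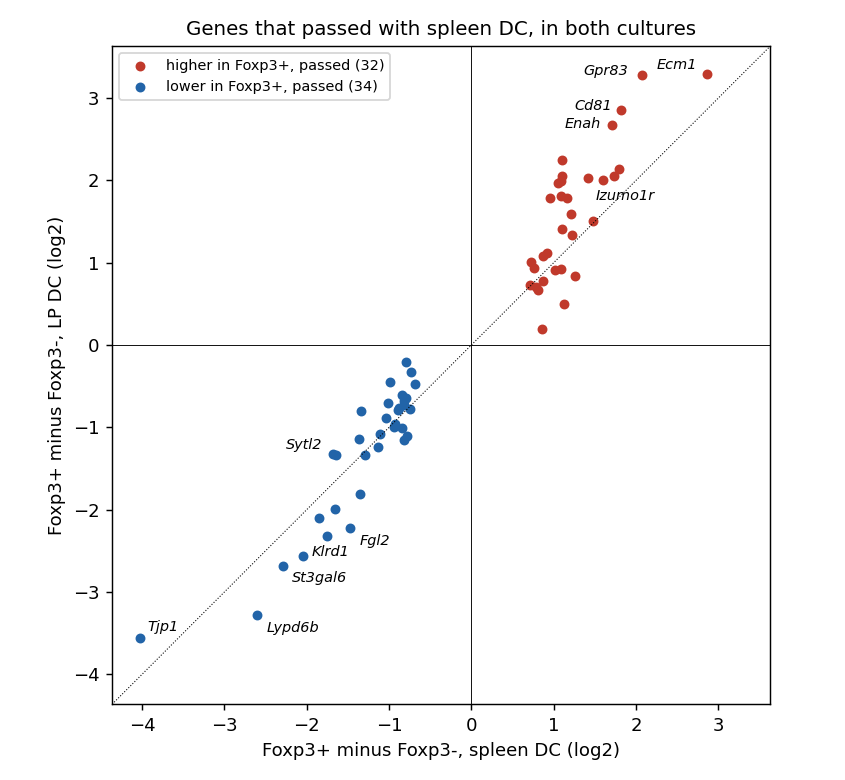
Log2 difference Foxp3+ minus Foxp3- with spleen DC (horizontal) and with LP DC (vertical) for the 66 genes that passed with spleen DC, rises in red and falls in blue, with a dotted line of equal change. All 66 points lie in the corners where both cultures go the same way, and Gpr83, Cd81 and Enah lie above the line.

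With RA added to spleen DC only the pair numbered 2 is complete. In that pair 31 of the 32 rises were higher in Foxp3+ cells, where 52.7% of all genes were, and 34 of the 34 falls were lower, where 46.8% of all genes were. Rassf4 was the exception, at -0.03. The fit gave median differences of 0.60 for the rises and -0.63 for the falls, and 1 rise, Ecm1, passed there. Ecm1 was higher by 1.72 in the RA pair, against 2.88 in the same-numbered pair without RA.

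Whether the sort differed between cultures was tested directly. For spleen DC against LP DC 0 genes passed in limma (lowest adjusted p 0.0911), and 434 genes (3.66%) had an unadjusted p under 0.05. The 4 largest differences between the cultures were those of Myb (-2.49 ± 0.79), Ifng (2.44 ± 0.55), Mctp1 (2.16 ± 0.53) and Capsl (-2.04 ± 0.46), with adjusted p-values of 0.521 to 1.00. The 4 with the lowest p-values, chosen after their values were seen, were Cd83, Tubb2b, Chchd10 and Stx11, each with a smaller difference with spleen DC. Cd83, a surface protein of activated cells, was 0.54 higher in Foxp3+ cells with spleen DC and 2.44 higher with LP DC (difference of differences -1.90 ± 0.22, adjusted p = 0.0911). Tubb2b, a beta tubulin, was 0.54 and 2.12 higher (-1.59 ± 0.20, adjusted p = 0.0915). Without LP Foxp3+ array 1, 3 genes passed this test. For spleen DC without against with RA 0 genes passed in limma (lowest adjusted p 0.464), and 231 (1.95%) had an unadjusted p under 0.05. The 4 largest were those of Tjp1 (-2.01 ± 0.92), Clec2d (-1.94 ± 0.38), Csgalnact1 (-1.83 ± 0.36) and Gda (-1.70 ± 0.24), with adjusted p-values of 0.464 to 1.00. Tjp1 was lower in Foxp3+ cells in both, by a difference of -4.02 without RA and -2.01 with it. Gda, guanine deaminase, was 0.22 higher without RA and 1.92 higher with it.

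Ifng, Il4 and Il17a did not pass with spleen DC and fell in Foxp3+ cells with LP DC. There the difference was -2.03 for Ifng (adjusted p = 0.0218), -1.02 for Il4 (0.015) and -1.19 for Il17a (0.00408), against 0.42, -0.76 and -0.06 with spleen DC. The difference between cultures was 2.44 for Ifng and 1.14 for Il17a, both with an adjusted p of 0.521 in limma, and 0.26 for Il4 (1.00). Il2ra, Ctla4, Ikzf2 and Tnfrsf18 also passed with LP DC and not with spleen DC, at 1.99, 1.01, 0.82 and 1.28. The difference between cultures did not pass for these 4 genes (adjusted p = 1.00 for each).

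**Figure D5:**
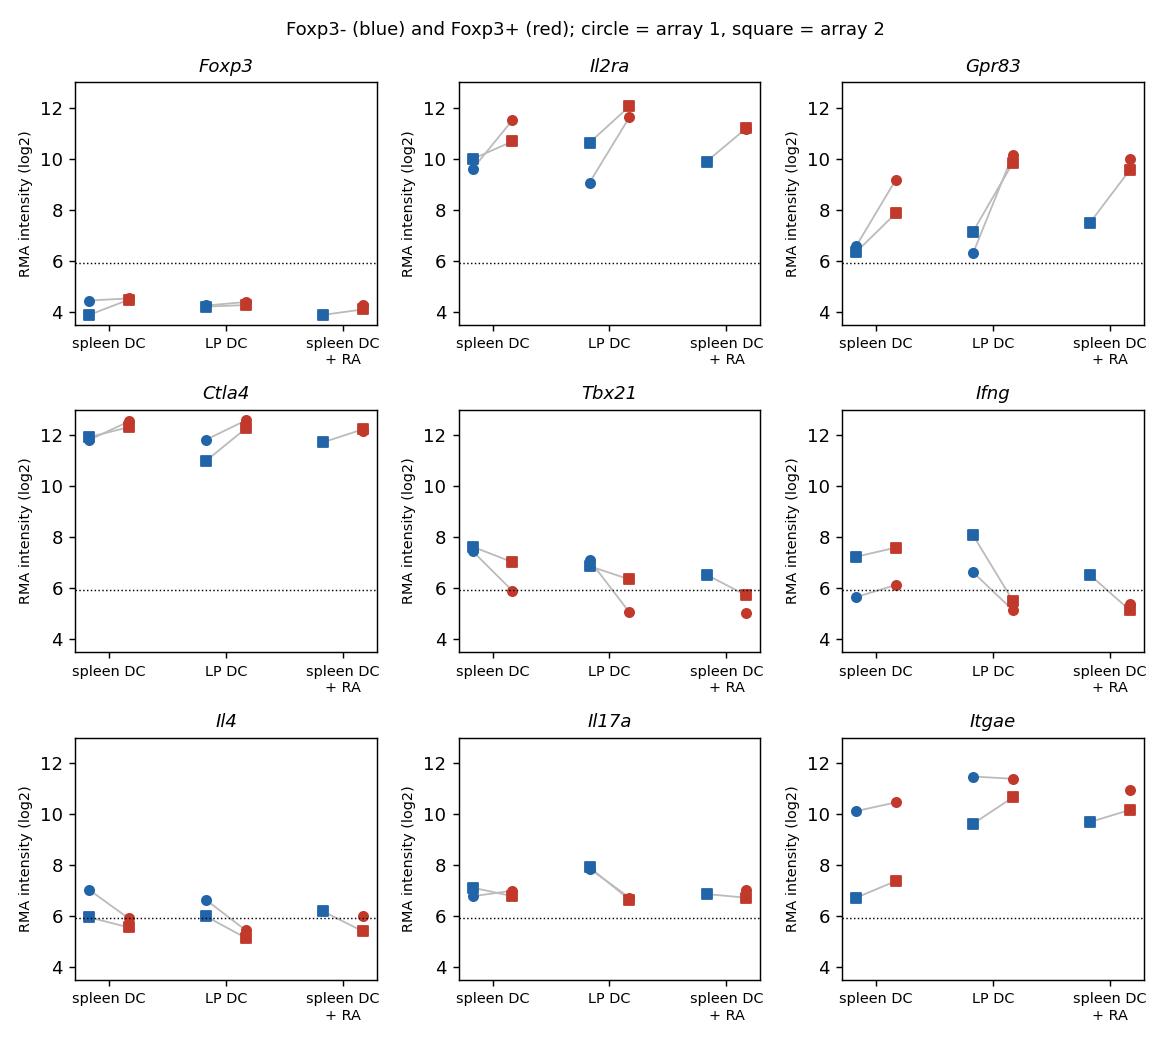
Log2 RMA intensity of 9 genes on the 11 co-culture arrays, Foxp3- in blue and Foxp3+ in red, circles for arrays numbered 1 and squares for arrays numbered 2, grey lines joining same-numbered arrays, and a dotted line at the mean median of the 4 spleen DC arrays without RA. Foxp3 lies under that line on every array, Gpr83 is higher in Foxp3+ cells in all complete pairs, and Ifng is slightly higher in Foxp3+ cells with spleen DC and lower with LP DC.

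A gene with more than 1 probe set was represented by the brightest on average over all arrays. Probe sets with names ending in _x_at were passed over where another existed. For St3gal6 the probe set passed over averaged 7.09 on the 4 arrays, against 6.93 for the one used. It differed by only -0.11 and -0.23 in the pairs, while another St3gal6 probe set gave -1.81 and -0.96. The genes that passed had 86 other probe sets over 35 genes: 63 moved the same way in both pairs, 19 were mixed and 4, of Castor2 and Itsn1, went the other way in both pairs. For Itsn1 another probe set fell further than the one used, by 1.66 and 1.85 in the pairs.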

How the data were processed

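The deposited table holds linear intensity values of 45101 probe sets on 17 arrays, which are RMA values computed by the authors, per the labels; the RMA version is not given in the sources used here. RNA was amplified before labelling, per the labels' protocols. Groups follow titles and the sort after culture (the source label of the Foxp3+ arrays names the starting cells). Log2 was taken with no pseudocount. Probe sets with 1 symbol in the platform annotation (34958, while 932 had several and 9211 none listed) gave 18194 genes. Each was represented by its brightest probe set on average, with those ending in _x_at passed over where another existed. The 11846 genes above the array median on at least 2 of the 11 co-culture arrays were tested. limma 3.58.1 (R 4.3.3) fitted 1 coefficient per group and the replicate number as a block (4 residual degrees of freedom, prior 5.56), with Benjamini-Hochberg adjustment and a threshold of 0.05. Residuals of same-numbered arrays correlated at 0.45 to 0.75 over 10 pairs of groups (0.75 for the spleen DC groups). Arrays of the same number thus shared a shift, also between cultures (0.66 for Foxp3+ with RA and Foxp3- with spleen DC alone). This does not show that same-numbered Foxp3+ and Foxp3- arrays came from the same culture. The fit was tested on simulated data drawn from its own estimates, the shift between array numbers included. That run therefore cannot tell whether the block is right for these arrays. A second Foxp3- array with RA was not analysed here.

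Genes were named if always listed (21, of which 1 is not reported here), among the 15 largest rises or falls that passed without overlap, passing members of a list (up to 8), or among the 4 largest differences of each interaction; others are said to be chosen after their values were seen. The members, 30 lists and tests were chosen with earlier results of these data known. The number of arrays limits the precision. Alternatives were no block, only the 4 arrays, other normalizations, filters, probe set rules, an added 32, prior variances and left-out arrays. Promoter windows are RefSeq's for GRCm38.p6.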

Additional observations from a re-analysis of the deposited data

Results flagged for a closer look

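Ifng was marked because the sorted populations differed in opposite directions in the cultures: Foxp3+ cells were higher in both pairs with spleen DC and lower in both pairs with LP DC. The difference between cultures was 2.44 ± 0.55 on the log2 scale in limma, with an adjusted p of 0.521, so it did not pass.

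The Foxp3 probe set was marked in arrays outside the comparison. On the 6 arrays of sorted memory cells it read between 7.08 and 9.14, above every one of the 11 co-culture arrays, where it read between 3.88 and 4.53.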

How the results depend on the processing

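Against 66 genes that passed, 0 passed with no replicate block, 585 with only the 4 arrays (1 residual degree of freedom a gene before pooling), 108 after quantile normalization and 10 with the mean of all probe sets. Leaving out single arrays gave between 1 and 103 genes, and leaving out both arrays numbered 1 or both numbered 2 gave 1 and 22. The test against LP DC gave 0 to 3 genes over the left-out arrays, and that against RA gave 0 wherever it could be fitted. Every gene that passed kept its direction under each alternative run. Of 720 medians of gene lists over the alternatives, 47 changed sign. With the values centred on each array's median, 24 rose and 34 fell. Probe sets near the array median limit what can be resolved. The causes of these changes were not tested.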
